A study of Homo sapiens with 2 samples.

Results

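The 7 genes described here encode histones, the proteins that package DNA: the linker histones HIST1H1B, HIST1H1C, HIST1H1D and HIST1H1E, the core histone H4 gene HIST1H4C, and the H2A and H2B genes HIST1H2AC and HIST1H2BK. They were taken by their symbols from 36601 gene rows, which hold 64 other rows with a symbol starting HIST. The list was chosen on measured values of these same cells: earlier results had HIST1H1D among the most variable genes and HIST1H1B leading a cluster of cells. Every value below is therefore a description, and no test is given. Their current symbols are H1-5 for HIST1H1B, H1-2 for HIST1H1C, H1-3 for HIST1H1D, H1-4 for HIST1H1E, H4C3 for HIST1H4C, H2AC6 for HIST1H2AC and H2BC12 for HIST1H2BK.

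The cells were OVCAR5, an established human ovarian carcinoma line that carried an IFNg-sensing reporter and CFP. They were grown as tumours in NSG-B2m-/- mice, which are immunodeficient and lack beta-2 microglobulin. The pool held 13 tumours. Exposure to TNFa (10 ng/ml, 6 h) covered 3 of them, and the combination of IFNg (100 ng/ml) and TNFa (10 ng/ml) over 6 h another 2. IFNg alone (100 ng/ml) was given to 2 tumours over 24 h and to 1 tumour over 48 h. The remaining tumours were unexposed, 2 for the 6 h point, 2 for the 24 h point and 1 for the 48 h point. Cytokines were injected into the tumour, and CFP+ bystander tumour cells were sorted from the pool, so all groups share the line, the reporter, the host and the sort. The treatment field gives an unstimulated culture for the gene expression library and TNFa for the hashtag library, which differs from the description of the pool. Cells carried pairs of antibody hashtags that formed 13 populations, and no label ties a pair to a tumour. Exposed and unexposed tumours were therefore not compared, and the populations are described by their hashtags.

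There was 1 droplet library with 9083 barcodes. Of these, 3611 had at least 500 genes and at most 20% mitochondrial UMIs (unique molecular identifiers, that is counted molecules), and 2994 of them carried a clear hashtag pair. These 2994 cells had a median of 8646 UMIs and 2842 genes, and the populations held 110 to 507 cells. Marker genes matched the carcinoma label: at least 3 of 10 epithelial markers were detected in 95.02% of cells. The same count of macrophage or monocyte markers (6 listed) was reached in 0.434% of cells, of fibroblast markers (8 listed) in 0.0668%, and of T cell, B cell, endothelial or erythroid markers in 0%. The population HTO4+HTO9 stood apart in depth and size, with 110 cells and a median of 6434.5 UMIs, where the highest population median was 9450 UMIs. The 95% intervals below are exact and reflect counting error alone.

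Core histones form the spool around which DNA is wound, and linker histones bind where the DNA enters and leaves it. Most genes of these families are replication-dependent: their transcripts build up in S phase, when new DNA has to be packaged, and decline afterwards. Their messenger RNAs usually end in a stem-loop bound by SLBP instead of in a poly(A) tail, while 3′ single-cell libraries prime on poly(A). MKI67 encodes a protein of proliferating cells that is most abundant around mitosis. PCNA encodes the sliding clamp of the DNA polymerases and is transcribed most strongly towards S phase.

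All 7 genes lie on chromosome 6 in the GENCODE 29 annotation of GRCh38, which may differ from the annotation used for counting. From low to high coordinates they are HIST1H1C (chr6:26055787-26056428, minus strand), HIST1H4C (chr6:26103876-26104310, plus), HIST1H2AC (chr6:26124145-26139116, plus), HIST1H1E (chr6:26156354-26157107, plus), HIST1H1D (chr6:26234268-26234933, minus), HIST1H2BK (chr6:27146418-27146798, minus) and HIST1H1B (chr6:27866849-27867529, minus). HIST1H2AC stands out in its gene model: its longest protein-coding transcript has 1654 bases in 2 exons, of which 393 are coding. The models of HIST1H1B, HIST1H1C, HIST1H1D and HIST1H2BK have a single exon and hold only coding length, that of HIST1H1E holds 94 noncoding bases and that of HIST1H4C 123. Of the 7, the HIST1H2AC model alone holds both forms of 3′ end signal, shown here because that gene behaved differently from the linker genes in the results below. Capitals mark the stem-loop (chr6:26124664-26124691, plus strand) and the polyadenylation signal AATAAA (chr6:26139082-26139102, plus strand), both GRCh38.

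HIST1H2AC stem-loop: ccaaaGGCTCTTTTCAGAGCCcccctac
HIST1H2AC polyadenylation signal: tgaggtAATAAAaggtaatgc

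The signal ended 9 bases before the end of that transcript. The stem-loop letters were in the models of 17 of 71 histone genes searched and in 25 of 206694 transcripts, and AATAAA was in the models of 23 of the 71 histone genes. Models that stop at the coding end cannot show either element.

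RefSeq promoters (GRCh38.p14) were matched for 6 of the 7 genes, all but HIST1H4C, and are shown because the 4 linker genes moved together. Each line holds 130 bases upstream of the transcript start. Capitals mark AAACACA, the H1 box of linker histone promoters, the letters CCAAT, the TATA-box letters TATATAA and the octamer ATTTGCAT, each searched on both strands, so that CCAAT may be read as ATTGG.

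HIST1H1B (chr6:27867589-27867718, minus strand): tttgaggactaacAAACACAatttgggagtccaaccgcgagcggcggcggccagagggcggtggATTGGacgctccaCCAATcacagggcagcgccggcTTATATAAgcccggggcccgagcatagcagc
HIST1H1D (chr6:26234988-26235117, minus strand): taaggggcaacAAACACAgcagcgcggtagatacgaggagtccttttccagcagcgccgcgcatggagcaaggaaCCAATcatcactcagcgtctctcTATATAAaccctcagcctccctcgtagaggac
HIST1H1E (chr6:26156199-26156328, plus strand): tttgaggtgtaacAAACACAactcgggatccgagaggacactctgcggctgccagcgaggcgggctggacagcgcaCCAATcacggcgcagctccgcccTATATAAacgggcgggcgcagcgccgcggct
HIST1H1C (chr6:26056471-26056600, minus strand): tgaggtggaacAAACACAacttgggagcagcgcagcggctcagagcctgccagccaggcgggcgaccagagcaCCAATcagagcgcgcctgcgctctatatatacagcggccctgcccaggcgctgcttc
HIST1H2AC (chr6:26124042-26124171, plus strand): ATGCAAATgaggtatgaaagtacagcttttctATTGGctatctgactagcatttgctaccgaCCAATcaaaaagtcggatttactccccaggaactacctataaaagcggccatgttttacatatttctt
HIST1H2BK (chr6:27146859-27146988, minus strand): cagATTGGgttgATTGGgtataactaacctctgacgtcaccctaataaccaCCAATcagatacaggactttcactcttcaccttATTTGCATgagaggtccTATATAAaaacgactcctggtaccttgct

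AAACACA began 117 to 119 bases upstream of the start in each of the 4 linker genes (117 in HIST1H1B and HIST1H1E, 119 in HIST1H1C and HIST1H1D) and was not found in HIST1H2AC or HIST1H2BK. Over the 250 bases upstream, these letters occurred in 4.82% of 35116 promoters. CCAAT was in 6 of 6 members and in 32.0% of promoters, TATATAA in 4 of 6 members and in 2.42%, and ATTTGCAT in 2 of 6 members, HIST1H2AC and HIST1H2BK, and in 1.63%. The TATATAA match of HIST1H1B reads on both strands and overlaps itself. A match describes letters only.

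Most cells had at least some histone message, but the genes were spread over cells in very different ways. At least 1 of the 7 genes had a UMI in 78.5% of cells (76.9 to 79.9%). HIST1H1C was found in 46.0% of cells with 3561 UMIs, HIST1H4C in 41.4% with 3803, HIST1H2AC in 32.3% with 1529, HIST1H1E in 23.6% with 1429 and HIST1H1D in 14.4% with 2463. HIST1H1B was found in 8.72% of cells (7.73 to 9.79%) with 1768 UMIs. HIST1H2BK had 40 UMIs in 1.34% of cells, never more than 1 in a cell. Together the 7 genes made up 0.0503% of all gene UMIs.

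HIST1H1B and HIST1H1D were thus rare but strong. Cells with a UMI held a mean of 6.77 of HIST1H1B and 5.73 of HIST1H1D, where the next gene, HIST1H4C, had 3.07. The highest cell for each gene held 55 UMIs of HIST1H1D and 38 of HIST1H1B. That peak did not set HIST1H1B apart, as it was 41 for HIST1H4C, 39 for HIST1H2AC and 37 for HIST1H1C. The 150 cells with most UMIs of a gene, 5% of all cells, held 93.0% of HIST1H1B UMIs and 87.0% of HIST1H1D UMIs. For HIST1H4C that share was 59.1%, for HIST1H1E 56.1%, for HIST1H1C 44.3% and for HIST1H2AC 35.1%. Shares of cells depend on depth. With each cell thinned to 4000 UMIs, which left 2808 cells and dropped 186 shallower ones, at least 1 gene had a UMI in 58.9% of cells, HIST1H1C in 28.0%, HIST1H4C in 23.7%, HIST1H2AC in 17.9%, HIST1H1E in 12.1%, HIST1H1D in 9.37% and HIST1H1B in 6.09%.

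**Figure D1:**
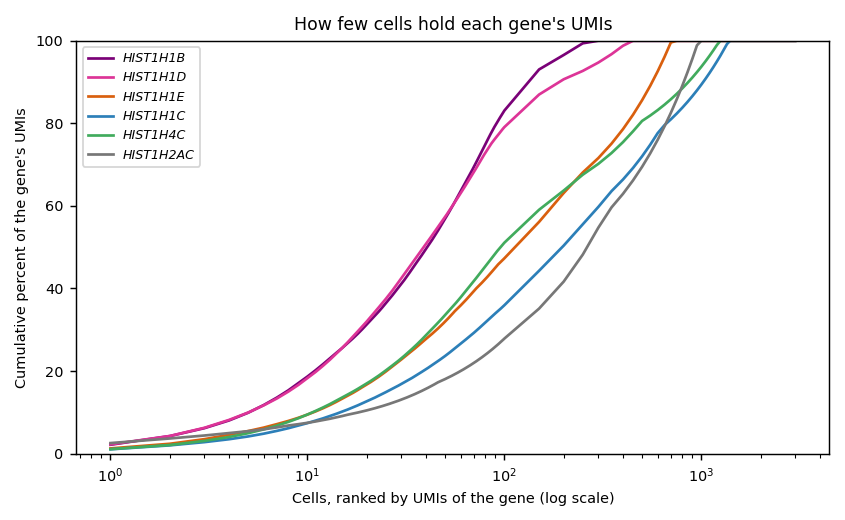
Cumulative percent of each gene's UMIs (y axis) over cells ranked by their UMIs of that gene (x axis, log scale), for the 6 genes with more than 40 UMIs. The curves of HIST1H1B and HIST1H1D climb first: at 150 cells HIST1H1B is at 93.0%, HIST1H1D at 87.0% and HIST1H2AC at 35.1%.

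The linker and H4 genes were higher in cells with MKI67 message. There were 423 MKI67-positive cells (1 UMI or more) and 2571 MKI67-negative cells. HIST1H1B, a linker histone of dividing cells, had 259 UMIs per 1000000 (CPM) in MKI67-positive cells and 3.95 CPM in MKI67-negative cells, a ratio of 65.7 (53.1 to 82.3). HIST1H1D had 335 CPM in MKI67-positive cells and 13.1 CPM in MKI67-negative cells, a ratio of 25.6 (22.7 to 29.02). HIST1H4C, a core histone gene, had 387 CPM in MKI67-positive cells and 57.6 CPM in MKI67-negative cells, a ratio of 6.71 (6.27 to 7.18).

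The other linker genes had smaller ratios. HIST1H1E had 131 CPM in MKI67-positive and 25.7 CPM in MKI67-negative cells, a ratio of 5.10 (4.58 to 5.68). HIST1H1C, the linker gene found in most cells, had 265 CPM in MKI67-positive and 81.9 CPM in MKI67-negative cells, a ratio of 3.23 (3.03 to 3.46). Each of these 5 genes was higher in MKI67-positive cells in 13 of 13 populations. So 5 of 7 genes passed a ratio of 2, where 6.04% of 13595 genes with 30 UMIs or more did and the median ratio over those genes was 0.980.

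The H2A gene HIST1H2AC did not share this pattern, and the H2B gene HIST1H2BK had too few UMIs to tell. HIST1H2AC had 53.5 CPM in MKI67-positive cells and 52.4 CPM in MKI67-negative cells, a ratio of 1.02 (0.902 to 1.15), and was higher in 4 of 13 populations. HIST1H2BK had 1.85 CPM in MKI67-positive and 1.24 CPM in MKI67-negative cells, from 12 and 28 UMIs, a ratio of 1.49 (0.692 to 3.03). At this depth no difference was detectable for it. None of the 7 genes was lower by 2-fold or more, as 6.71% of genes were. Depth went with the class: MKI67-positive cells had a median of 14580 UMIs and MKI67-negative cells 8223. In cells thinned to 4000 UMIs, where the MKI67 classes are also drawn from the thinned counts, the ratio was 32.7 for HIST1H1B, 20.1 for HIST1H1D, 6.72 for HIST1H4C, 5.28 for HIST1H1E, 3.76 for HIST1H1C and 1.14 for HIST1H2AC. The HIST1H1B ratio was 28.2 in the 400 cells of a stricter filter (1000 genes, 10% mitochondrial UMIs), and that of HIST1H1D was 16.1 without the 30 cells with most histone UMIs.

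Of all HIST1H1B UMIs, 94.97% were in MKI67-positive cells, and the corresponding share was 88.0% for HIST1H1D, 65.8% for HIST1H4C, 59.4% for HIST1H1E, 48.1% for HIST1H1C, 30% for HIST1H2BK and 22.6% for HIST1H2AC.

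PCNA split the genes the same way with smaller ratios. HIST1H1B had 150 CPM in the 857 PCNA-positive cells and 9.72 CPM in the 2137 PCNA-negative cells, a ratio of 15.4 (13.2 to 18.1). HIST1H1D had 202 CPM in PCNA-positive cells and 17.6 CPM in PCNA-negative cells, a ratio of 11.5 (10.2 to 12.9). HIST1H4C had a ratio of 3.76, HIST1H1E of 3.55 and HIST1H1C of 2.09, and all 5 were higher in 13 of 13 populations. These 5 of 7 genes passed a ratio of 2, where 3.74% of genes did.

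HIST1H2AC was slightly lower with PCNA: 47.1 CPM in PCNA-positive cells and 55.9 CPM in PCNA-negative cells, a ratio of 0.844 (0.757 to 0.940), with PCNA-positive cells lower in 10 of 13 populations. That is short of a 2-fold fall, which 1.21% of genes showed. HIST1H2BK had a ratio of 1.04 (0.511 to 2.05). Median depth was 11035 UMIs in PCNA-positive and 8012 UMIs in PCNA-negative cells. After thinning, the PCNA ratios of HIST1H1B (9.24) and HIST1H1D (7.50) were lower by more than 1.5 times. Without the 30 cells with most histone UMIs the ratio was 10.1 for HIST1H1B and 6.82 for HIST1H1D. With 2 PCNA UMIs or more taken as positive, the ratios were 29.3 for HIST1H1B, 21.8 for HIST1H1D, 6.41 for HIST1H4C and 5.55 for HIST1H1E.

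Taking MKI67 and PCNA at once, the linker and H4 genes were highest in cells with both. There were 279 cells with UMIs of both genes, 144 with MKI67 only, 578 with PCNA only and 1993 with neither. HIST1H1B had 337 CPM with both, 66.7 CPM with MKI67 only, 5.67 CPM with PCNA only and 3.32 CPM with neither. HIST1H1D had 440 CPM with both, 74.3 CPM with MKI67 only, 18.2 CPM with PCNA only and 11.2 CPM with neither. At full depth the step between MKI67 only and PCNA only was larger for these genes than the step between PCNA only and neither.

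HIST1H4C had 482 CPM with both, 150 CPM with MKI67 only, 62.7 CPM with PCNA only and 55.8 CPM with neither. HIST1H1E had 167 CPM with both, 43.1 CPM with MKI67 only, 31.9 CPM with PCNA only and 23.5 CPM with neither. HIST1H1C had 317 CPM with both, 136 CPM with MKI67 only, 81.1 CPM with PCNA only and 82.2 CPM with neither. HIST1H2AC ran in another order in the pooled cells, with 46.6 CPM with both, 70.5 CPM with MKI67 only, 47.5 CPM with PCNA only and 54.2 CPM with neither. Its pooled ratio of MKI67 only to neither was 1.30 (1.07 to 1.56), but MKI67 only was higher in 4 of 12 populations. The pooled peak was thus not kept within most populations.

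The ratio of cells with both to cells with neither was 101.5 (77.6 to 135) for HIST1H1B, 39.2 for HIST1H1D, 8.64 for HIST1H4C, 7.10 for HIST1H1E and 3.85 for HIST1H1C, each above 1 in 13 of 13 populations. For HIST1H2AC it was 0.859 (0.737 to 0.998). PCNA only over neither gave 1.71 (1.08 to 2.67) for HIST1H1B, 1.62 (1.27 to 2.06) for HIST1H1D, 1.36 (1.13 to 1.62) for HIST1H1E and 1.12 (0.995 to 1.27) for HIST1H4C. HIST1H1C had 0.987 (0.888 to 1.10) and HIST1H2AC 0.877 (0.765 to 1.00). At full depth none of the 7 genes reached 2-fold here, as 2.24% of 13594 genes did.

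The PCNA only over neither values differed after thinning, where the classes are also drawn from the thinned counts. In thinned cells HIST1H1B had 158 CPM with MKI67 only (187 cells), 34.8 CPM with PCNA only (316 cells) and 4.91 CPM with neither (2188 cells). HIST1H1D had 198 CPM with MKI67 only, 52.2 CPM with PCNA only and 13.03 CPM with neither. Both genes thus passed 2-fold between PCNA only and neither. As a ratio, that step was no longer smaller than the step between MKI67 only and PCNA only. No share over all genes is given for thinned cells.

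The linker genes therefore stood in different proportions in the 2 outer classes. In cells with both, HIST1H1D gave 34.9% of the UMIs of the 4 linker genes, HIST1H1B 26.7%, HIST1H1C 25.1% and HIST1H1E 13.2%. In cells with neither, HIST1H1C gave 68.4%, HIST1H1E 19.5%, HIST1H1D 9.34% and HIST1H1B 2.76%. No cell type known to lack these genes was present to measure free RNA. Of cells with neither marker (median 7848 UMIs), 40.0% had a UMI of HIST1H1C, 33.9% of HIST1H4C, 32.0% of HIST1H2AC, 17.1% of HIST1H1E, 7.68% of HIST1H1D and 2.46% of HIST1H1B. Of cells with both (median 15399 UMIs), 79.2% had a UMI of HIST1H1C, 82.4% of HIST1H4C, 38.0% of HIST1H2AC, 62.0% of HIST1H1E, 61.3% of HIST1H1D and 57.0% of HIST1H1B. The part of free RNA in the low shares was not tested.

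**Figure D2:**
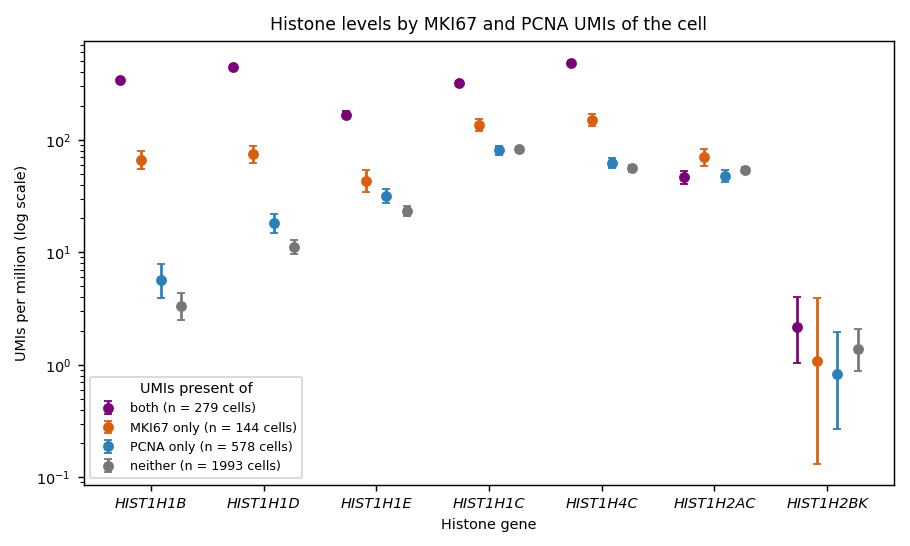
UMIs per 1000000 (y axis, log scale) of each gene in cells with UMIs of both MKI67 and PCNA, of MKI67 only, of PCNA only and of neither; bars are exact 95% Poisson intervals. HIST1H1B spans 337 CPM with both and 3.32 CPM with neither, while the 4 HIST1H2AC points lie between 46.6 and 70.5 CPM.

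Over single cells, 5 of the genes varied together and HIST1H2AC stood aside. HIST1H2BK had a UMI in 8 of the thinned cells, too few for its r to show either. In 2808 cells thinned to 4000 UMIs, Pearson's r was 0.676 between HIST1H1B and HIST1H1D, 0.514 between HIST1H1B and HIST1H4C and 0.454 between HIST1H1D and HIST1H4C. The other pairs among the 4 linker genes and HIST1H4C lay between 0.203 (HIST1H1C with HIST1H1E) and 0.385 (HIST1H1B with HIST1H1E). The r of HIST1H2AC with the other 6 genes lay between -0.0207 (HIST1H4C) and 0.0664 (HIST1H1C). The mean over pairs of all 7 genes was 0.184, and over pairs of the 5 it was 0.384, a set taken after seeing the data. Cells here share 1 library, and zeros dominate, so these are descriptions.

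Co-detection gives the same picture in counts of cells. Of 171 thinned cells with a HIST1H1B UMI, 67.3% also had HIST1H1D, 77.2% had HIST1H4C and 17.5% had HIST1H2AC. Of 2637 thinned cells without one, 5.61% had HIST1H1D, 20.2% had HIST1H4C and 17.9% had HIST1H2AC.

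Among 10084 genes found in 2% of thinned cells or more, members left out, the 3 closest to HIST1H1B were RRM2 (r = 0.573), a subunit of the enzyme that makes deoxynucleotides, TOP2A (0.513), a topoisomerase that untangles DNA, and MKI67 (0.505). The same 3 genes, in the same order, were closest to HIST1H1D (0.525, 0.491 and 0.463) and to HIST1H4C (0.403, 0.382 and 0.369). HIST1H1E was closest to RRM2 (0.278), MKI67 (0.273) and TOP2A (0.250), and HIST1H1C to MKI67 (0.274), TOP2A (0.273) and RRM2 (0.266). The sum of the 7 genes was closest to RRM2 (0.392), MKI67 (0.368) and TOP2A (0.367). The highest r of HIST1H2AC was 0.0878, with TERF2IP, followed by MEIS2 (0.0779) and TMEM159 (0.0750). That of HIST1H2BK was 0.120, with LINC00909, followed by MICAL3 (0.0956) and PI4K2A (0.0949). Values this low in sparse counts are no finding. The r of PCNA was 0.328 with HIST1H1B, 0.299 with HIST1H1D, 0.232 with HIST1H4C, 0.148 with HIST1H1E, 0.147 with HIST1H1C and -0.0262 with HIST1H2AC.

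**Figure D3:**
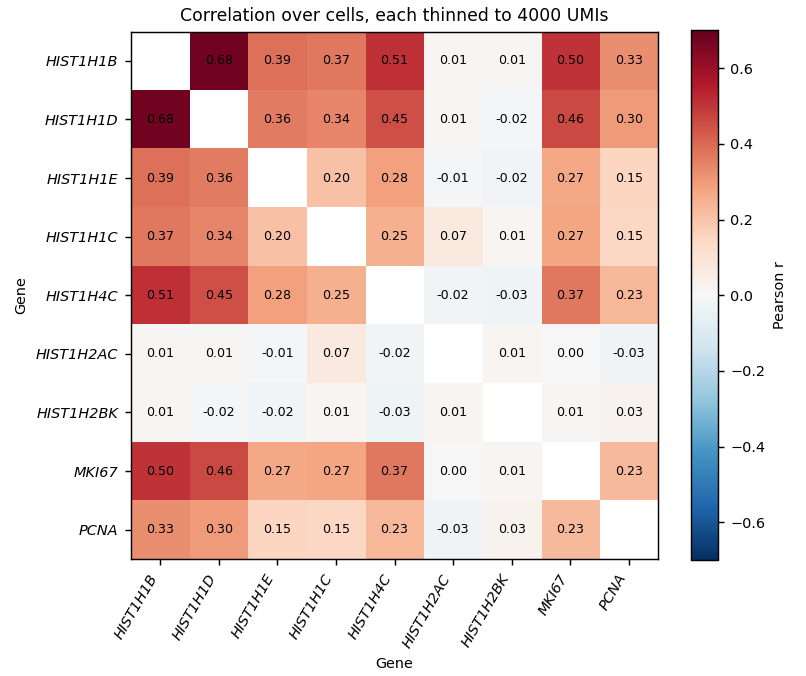
Pearson r (colour and number in each square) between the 7 genes, MKI67 and PCNA over 2808 cells thinned to 4000 UMIs. The upper left block of HIST1H1B, HIST1H1D, HIST1H1E, HIST1H1C and HIST1H4C is red, with 0.676 as its highest value, and the HIST1H2AC and HIST1H2BK rows are near 0.

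Splitting the thinned cells by other cell cycle genes also set the linker and H4 genes above HIST1H2AC, less cleanly for HIST1H1C and HIST1H1E. With MKI67 and PCNA counted in, 41 listed genes of G1/S, S phase and G2/M were used, 14, 12 and 15 of them. HIST1H1B was at least 2-fold higher in cells with a UMI of 14 of 14 G1/S genes, 12 of 12 S phase genes and 14 of 15 G2/M genes. These counts, and those of the other histone genes below, rest on pooled ratios. No share over all genes is given beside them. Within populations HIST1H1B was higher with TOP2A in 13 of 13 and with RRM2 in 11 of 11 compared. With CCNA2 (pooled ratio 6.29) HIST1H1B was higher in 4 of 8, and with POLA1 (3.91) in 4 of 7. Its ratio was highest for TOP2A, 252 CPM in cells with it and 6.25 CPM in cells without it (40.4, 30.7 to 53.8), and then for RRM2, 421 CPM in cells with it and 12.3 CPM in cells without it (34.3, 27.8 to 42.5). Its ratio was lowest for KIF20A, a motor protein of late mitosis, 58.1 CPM in 56 cells with it and 38.1 CPM in 2752 cells without it (1.53, 0.805 to 2.64).

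HIST1H1D was at least 2-fold higher with 13 of 14 G1/S, 12 of 12 S phase and 14 of 15 G2/M genes, and HIST1H4C with 13, 11 and 14. HIST1H1E reached 2-fold with 9 of 14 G1/S, 11 of 12 S phase and 14 of 15 G2/M genes, and HIST1H1C with 8, 11 and 12. KIF20A also gave the lowest G2/M ratio for HIST1H1D (1.81), HIST1H1C (1.56), HIST1H4C (1.24) and HIST1H1E (1.04). SLBP, whose product binds the histone stem-loop, gave the lowest G1/S ratio for HIST1H1B (3.10), HIST1H1D (1.97), HIST1H4C (1.96) and HIST1H1E (1.41), and MCM5, a subunit of the replicative helicase, did for HIST1H1C (1.24). HIST1H2AC was 2-fold higher with none of the 41 genes. Its ratios lay between 0.169 (CCNE2, 1 UMI in 27 cells) and 1.20 (RFC2), and 13 of 14 G1/S genes, 10 of 12 S phase genes and 9 of 15 G2/M genes gave one below 1.

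**Figure D4:**
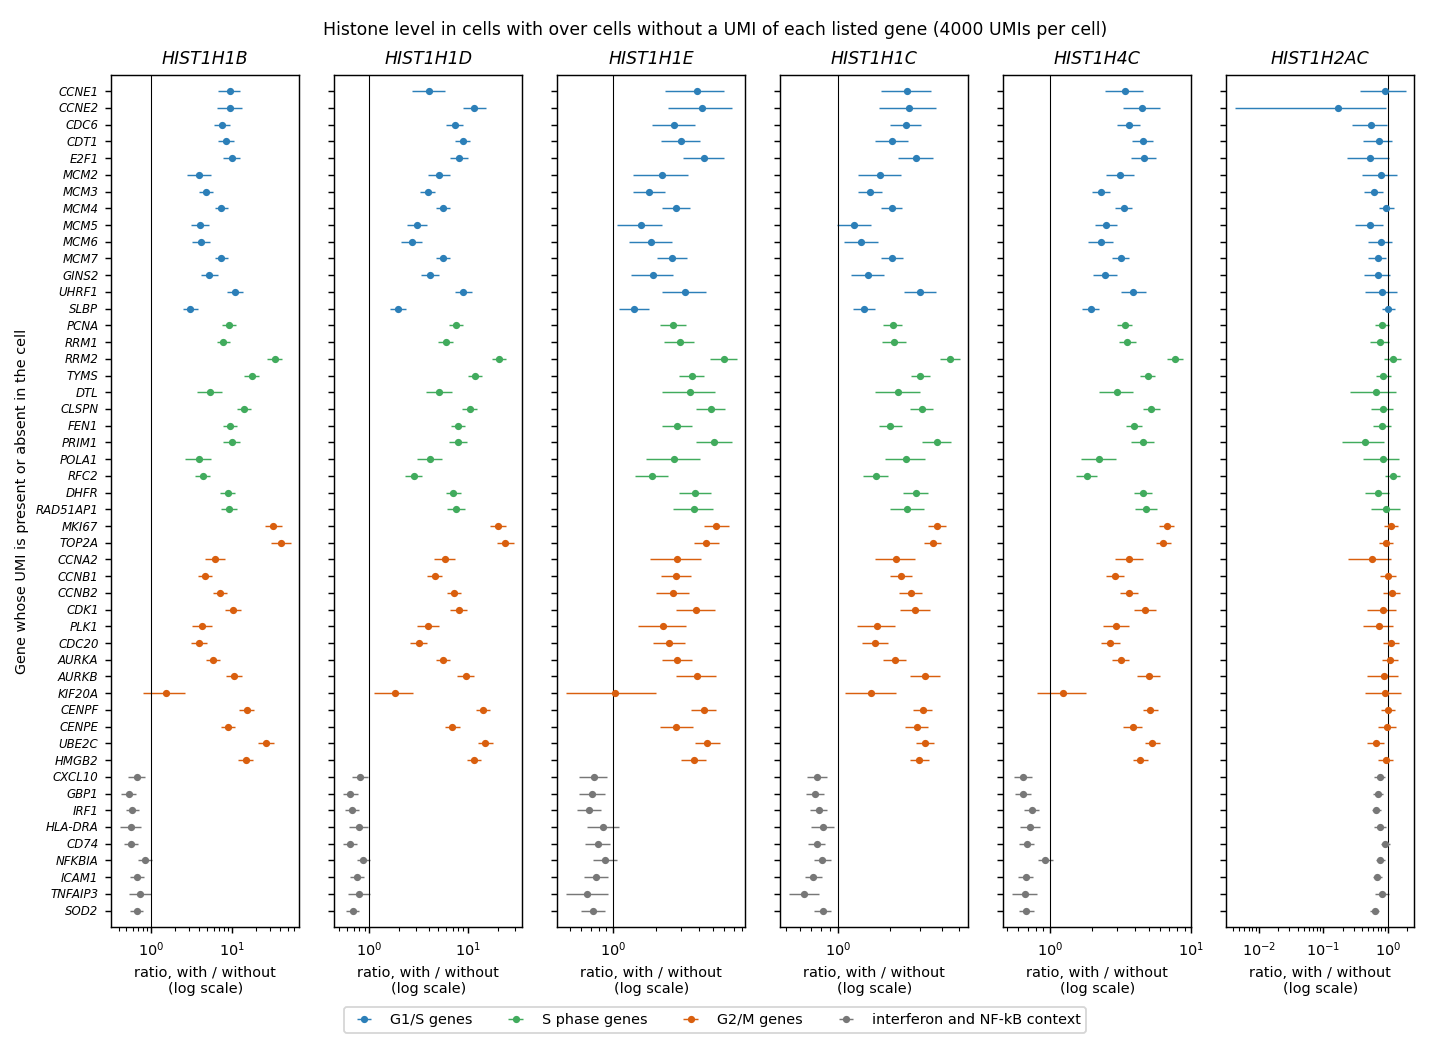
Ratio of each histone gene's level in thinned cells with over cells without a UMI of the gene named at the left (x axis, log scale, a separate scale per panel); bars are exact 95% intervals. The HIST1H1B points run between 1.53 and 40.4 for the cell cycle genes, and those of HIST1H2AC lie between 0.169 and 1.20; grey points are genes of the interferon and NF-kB responses.

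Between the 13 populations, HIST1H1D had the widest range at full depth. It had 165 CPM in HTO3+HTO6, 72.1 CPM in the median population and 22.2 CPM in HTO4+HTO9. Its ratio between highest and lowest was 7.44 (4.51 to 13.1). The share of cells with a HIST1H1D UMI was 12.1% of 124 cells in HTO3+HTO6 (164 UMIs) and 11.8% of 110 cells in HTO4+HTO9 (17 UMIs). The interval takes these UMIs as independent. It leaves out their clumping in few cells and is too narrow to that extent. Over all populations it ran between 9.96% (HTO2+HTO9) and 20.4% (HTO4+HTO6). The level of HIST1H1D thus differed between HTO3+HTO6 and HTO4+HTO9 where its share hardly did. HIST1H1B had 84.6 CPM in HTO3+HTO6, 51.9 CPM in the median population and 20.9 CPM in HTO4+HTO9, and its ratio was 4.05 (2.35 to 7.41). It was found in 9.68% of cells in HTO3+HTO6 and in 4.55% in HTO4+HTO9. In HTO3+HTO9, where its level was second lowest (23.8 CPM), it was found in 10.1%. At full depth these 2 of the 7 genes passed 4-fold, where 14.5% of 13596 genes with 30 UMIs or more and 5.65% of 3999 genes with 1000 UMIs or more did. The share of 2 in 7 rests on few genes and changed with the setting. The HIST1H1D ratio was 4.93 in thinned cells, 3.67 without the 30 cells with most histone UMIs and 2.67 with no limit on mitochondrial UMIs. The HIST1H1B ratio was 6.29 in thinned cells, 3.50 without those 30 cells, 3.59 with no limit on mitochondrial UMIs and 3.55 without HTO4+HTO9. In thinned cells the ratios of HIST1H1B and HIST1H2AC (5.55) were thus larger than that of HIST1H1D, and all 3 passed 4-fold. No share over all genes and no interval is given for thinned cells, where populations held 90 to 482 cells. The 3 genes therefore cannot be set against other genes there.

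The other linker genes spread less. HIST1H1C had 171 CPM in HTO3+HTO6, 116 CPM in the median population and 62.7 CPM in HTO4+HTO9, and its ratio was 2.73 (1.97 to 3.85). HIST1H1E had 63.4 CPM in HTO3+HTO6, 50.4 CPM in the median population and 35.3 CPM in HTO4+HTO9, and its ratio was 1.80 (1.13 to 2.94). All 4 linker genes were highest in HTO3+HTO6 and lowest in HTO4+HTO9. Ratios of this size are common: the median over genes was 2.24, and 1.69 over genes with 1000 UMIs or more.

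HIST1H4C had 189 CPM in HTO4+HTO7, 129 CPM in the median population and 66.6 CPM in HTO4+HTO9, and its ratio was 2.83 (2.12 to 3.85). HIST1H2AC had 71.4 CPM in HTO4+HTO6, 57.4 CPM in the median population and 26.1 CPM in HTO4+HTO9, and its ratio was 2.73 (1.71 to 4.60), or 5.55 in thinned cells. HIST1H2BK had 4 UMIs in its highest population and 1 in its lowest, too few to order. The share of cells with a UMI ran between 25.5% and 58.7% for HIST1H1C and between 13.6% and 35.3% for HIST1H1E. It ran between 29.1% and 50.4% for HIST1H4C and between 11.8% and 42.8% for HIST1H2AC. Each was lowest in HTO4+HTO9 and highest in HTO4+HTO6 or HTO4+HTO7. These shares are at full depth and depend on it.

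Summed, the 7 genes had 682 CPM in HTO3+HTO6, 667 CPM in HTO4+HTO7, 513 CPM in the median population, 360 CPM in HTO2+HTO9 and 235 CPM in HTO4+HTO9. The ratio of highest to lowest was 2.90 (2.46 to 3.44), and it was 1.89 without HTO4+HTO9, the population with the fewest and shallowest cells. Without it the ratio was 4.26 for HIST1H1D, 3.55 for HIST1H1B and 1.82 for HIST1H1C, so that of these HIST1H1D alone passed 4-fold. The part of depth in these values was not tested. With the 13 populations sorted by level, the intervals of neighbours were apart in 3 of 12 steps for the sum. They were apart in 1 of 12 for HIST1H1D and in 0 of 12 for each other gene. Neighbours in a sorted order lie close by construction, so these counts do not show that populations were alike.

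**Figure D5:**
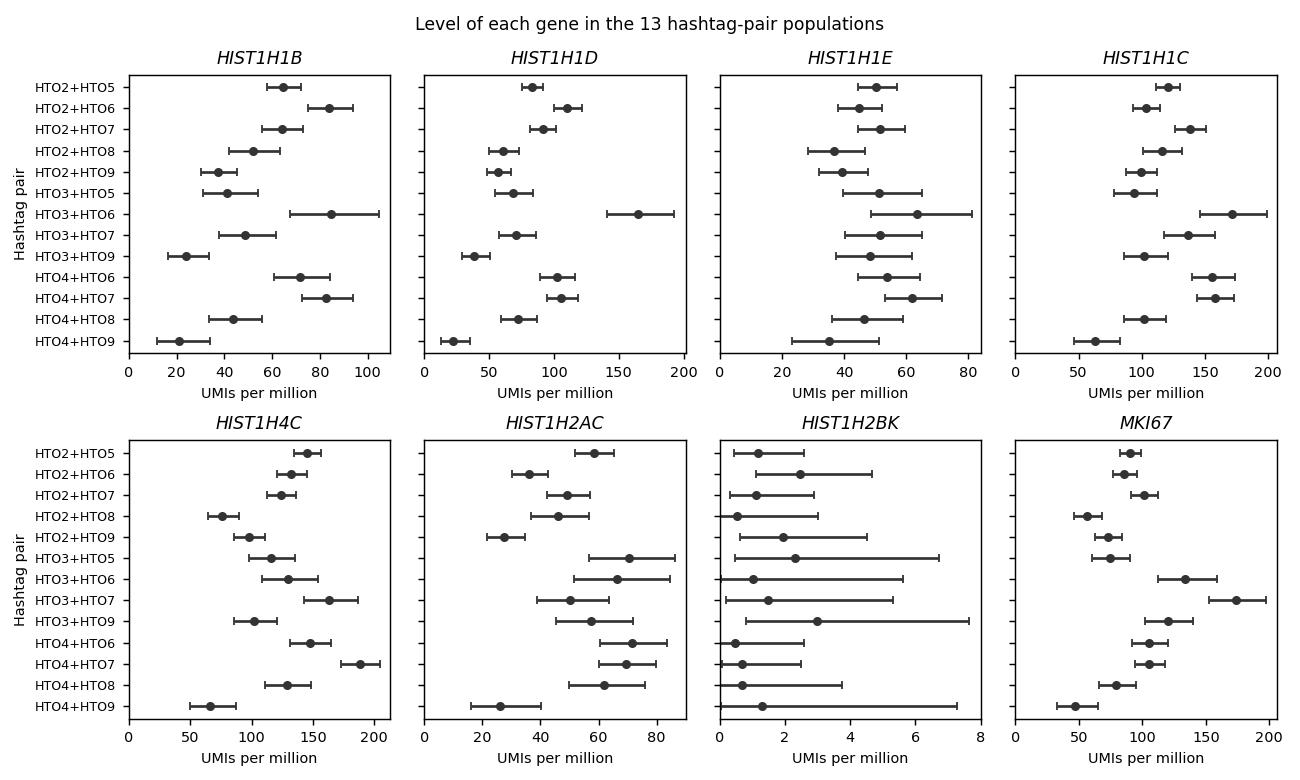
UMIs per 1000000 (x axes) of the 7 genes and MKI67 in the 13 hashtag-pair populations (rows); points are pooled levels and bars exact 95% Poisson intervals. HTO4+HTO9 is the lowest row for each gene but HIST1H2BK, and HTO3+HTO6 is the highest for the 4 linker genes.

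The populations also differed in how many cells carried MKI67, between 25.9% in HTO3+HTO7 and 6.36% in HTO4+HTO9, with 13.7% in the median population. Over the 13 populations the summed histone level went with the share of MKI67-positive cells at rho = 0.588. It went with the MKI67 level at rho = 0.709 (Pearson's r = 0.598) and with the PCNA level at rho = 0.352 (r = 0.207). By gene, rho with the MKI67 level was 0.797 for HIST1H1E, 0.736 for HIST1H1C, 0.709 for HIST1H4C, 0.505 for HIST1H1D, 0.478 for HIST1H2AC and 0.456 for HIST1H1B. HIST1H1B and HIST1H1D shared their order of populations more closely (rho = 0.956, r = 0.910) than either shared it with MKI67. These values share 1 library and the depth of each population.

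The levels within MKI67-positive cells differed between populations too. In MKI67-positive cells the sum was 1913 CPM in HTO2+HTO6, 1360 CPM in the median population and 689 CPM in HTO3+HTO9. In MKI67-negative cells it was 322 CPM in HTO4+HTO7, 245 CPM in the median population and 158 CPM in HTO2+HTO9. HIST1H1D in MKI67-positive cells had 595 CPM in HTO3+HTO6, 310 CPM in the median population and 61.9 CPM in HTO4+HTO9, where it rests on 7 cells. HIST1H1B in MKI67-positive cells had 414 CPM in HTO2+HTO6, 247 CPM in the median population and 71.6 CPM in HTO3+HTO9.

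Of the 64 other genes with a symbol starting HIST, 13 had no UMI and 30 had enough (30 UMIs or more) to compare. With MKI67, 22 of the 30 were at least 2-fold higher and 1, HIST1H3E, at least 2-fold lower (0.327, 0.0640 to 1.04), from 35 UMIs. With PCNA, 17 of the 30 were at least 2-fold higher and HIST1H3E again 2-fold lower (0.434, 0.160 to 1.02). Of the 5 with most UMIs, 2 H2A genes passed 2-fold and the others, an H4 gene among them, did not, so the split did not follow the type of histone. HIST2H2AC had 49.1 CPM in MKI67-positive and 9.84 CPM in MKI67-negative cells (ratio 4.99), and HIST1H2AG had 23.6 CPM in MKI67-positive and 4.52 CPM in MKI67-negative cells (5.23). HIST3H2A had 32.6 CPM in MKI67-positive and 25.6 CPM in MKI67-negative cells (1.27), HIST1H4H had 9.12 CPM in MKI67-positive and 7.27 CPM in MKI67-negative cells (1.25), and HIST1H2BD had 15.1 CPM in MKI67-positive and 23.3 CPM in MKI67-negative cells (0.649, 0.518 to 0.807). Histone genes are near-identical in their coding parts, so reads may have been split or dropped between copies in counting, and the value of any single gene is uncertain to that extent.

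Replication-independent histones, which are made outside S phase as well, were mixed: 4 of 11 measured genes were at least 2-fold higher with MKI67 and 3 of 11 with PCNA. CENPA, the centromeric H3, had a MKI67 ratio of 64.2, H2AFX of 9.55, H2AFZ of 5.15 and H2AFV of 2.24. The other 7 stayed under 2-fold: H1F0 at 1.97, H2AFY at 1.79, H1FX at 1.74, H2AFY2 at 1.44, H3F3B at 1.35, H2AFJ at 1.33 and H3F3A at 0.995.

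Of 13 genes of histone mRNA processing, 4 were at least 2-fold higher with MKI67 and 1 with PCNA. SLBP was higher with each, at 2.75 for MKI67 and 2.42 for PCNA. The 3 found in most cells were SNRPB (2.14 with MKI67), LSM10 (1.11), a part of the U7 particle that cleaves histone messages, and SNRPD3 (1.39). Of 11 histone chaperone genes, whose products hand histones to DNA, 5 were at least 2-fold higher with MKI67 and 4 with PCNA. ASF1B had a MKI67 ratio of 18.9 and CHAF1A of 7.03. The 3 found in most cells were SUPT16H (1.87), NASP (2.39), which carries linker and core histones, and SSRP1 (2.27).

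As a check of the classes, 14 of 14 G1/S genes, 12 of 12 S phase genes and 14 of 14 G2/M genes were at least 2-fold higher with MKI67. The 3 G1/S genes found in most cells had MKI67 ratios of 2.75 (SLBP), 3.82 (MCM3) and 4.83 (MCM7), the 3 S phase genes of 4.47 (PCNA), 2.66 (RFC2) and 17.4 (TYMS), and the 3 G2/M genes of 17.8 (HMGB2), 67.3 (TOP2A) and 50.7 (CENPF). HIST1H1B, at 65.7, ranked 19 among 13595 genes by this ratio, HIST1H1D 71, HIST1H4C 199, HIST1H1E 254, HIST1H1C 395 and HIST1H2AC 6170. By the PCNA ratio HIST1H1B ranked 10 and HIST1H1D 18.

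The limit on mitochondrial UMIs left out barcodes with less histone message. In the 4077 barcodes with a pair above 20% mitochondrial UMIs, the 7 genes together had 384 CPM, counted without mitochondrial UMIs, and in the 2994 cells at or below 20% they had 586 CPM, a ratio of 0.656 (0.636 to 0.676). Of the 7 genes, HIST1H1B (0.377) and HIST1H1D (0.474) were lower by 2-fold or more above the limit, where 1.33% of 14989 genes were, and 0 were 2-fold higher, where 7.52% of genes were. HIST1H2AC was slightly higher above the limit, at 1.15 (1.06 to 1.24).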

How the data were processed

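The deposited matrix holds whole-number UMI counts, not normalised, from Cell Ranger, whose version is 5.0.1 per the file headers. The submitters' processing notes give version 2.1.1 of it, with the build GRCh38. No header or label gives the gene annotation. The members and gene lists were chosen with earlier results of these data known. Cells had at least 500 genes, at most 20% mitochondrial UMIs, and a hashtag pair: of HTO2 to HTO9 the second highest had at least 20 counts and 4 times the third. Doublets within a pair cannot be seen, and no doublet caller was run. Other pairs were left out as having no clear origin. Levels are summed UMIs per 1000000, with the splitting gene taken out of the totals; shares have Clopper-Pearson, levels Poisson and ratios conditional exact 95% intervals. Correlations used log1p of counts scaled to 10000 per cell. Thinning to 4000 UMIs used a fixed seed. Genes needed 30 UMIs for a ratio. The named genes are the 7 members, MKI67, PCNA and the 5 other HIST genes with most UMIs. All replication-independent histones in 1% of cells or more are named too. So are the 3 genes of each other list found in most cells and the 3 closest by r. A list of p53 and arrest genes was also run, but none of its genes is described here. ASF1B, CHAF1A, HIST1H3E, KIF20A, CCNE2, MCM5, CCNA2 and POLA1 were named after their values were seen. GBP1, SOD2 and CD74 are given as ends of ranges of ratios. Of the interferon and NF-kB list, 1 gene is not reported here. Scripts ran in Python 3.11.15 with scipy 1.17.1, numpy 2.4.6, matplotlib 3.10.9 and pandas 2.3.3. The ratios and intervals were tested on simulated independent Poisson counts, which lack the clumping of UMIs in few cells seen here. That test cannot show how well the intervals cover in these data. Alternatives were other cell filters, other pair rules, thinning, leaving out populations, members or top cells, other positivity limits and other summaries.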

Additional observations from a re-analysis of the deposited data

Results flagged for a closer look

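Barcodes above 20% mitochondrial UMIs lay outside the cells described, yet held histone message: among 4077 of them with a hashtag pair there were 1731 UMIs of HIST1H1C, 1151 of HIST1H4C, 1051 of HIST1H2AC, 700 of HIST1H1D, 690 of HIST1H1E, 400 of HIST1H1B and 19 of HIST1H2BK. There are no control barcodes, and all 7 counts exceed the 3 counts that a count of 0 allows. That limit takes no account of free RNA, whose part in these counts was not tested. Counted without mitochondrial UMIs, the sum was lower above 20% in 11 of 13 populations. HIST1H1B had 26.8 CPM above and 71.0 CPM at or below (0.377), HIST1H1D 46.9 CPM above and 99.0 CPM at or below (0.474), and HIST1H4C 77.1 CPM above and 153 CPM at or below (0.504). HIST1H1C (0.810), HIST1H1E (0.805) and HIST1H2BK (0.791) were closer to 1. HIST1H2AC had 70.4 CPM above and 61.4 CPM at or below, a ratio of 1.15 (1.06 to 1.24), near the median over genes of 1.14. MKI67 was lower above 20% as well (0.475), and median depth was 4719 UMIs above and 8646 UMIs at or below; their part in these ratios was not tested.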

How the results depend on the processing

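Under the alternatives run, no MKI67 or PCNA ratio whose interval was clear of 1 changed direction. This does not cover the other splits of cells. The pooled HIST1H2AC ratio of MKI67 only to neither was 1.30 (1.07 to 1.56), but MKI67 only was higher in 4 of 12 populations. Its pooled ratio with CXCL10 was not kept within most populations either. HIST1H2BK, at 40 UMIs, had no such interval, and under the stricter filter its MKI67 ratio was 0.434 and its PCNA ratio 0.220. The MKI67 ratio of HIST1H2AC (1.02) was below 1 under 5 alternatives, down to 0.900. The share of cells with at least 1 member (78.5%) became 73% with 1000 genes and 10% mitochondrial UMIs (400 cells), 61.6% with no mitochondrial limit (7071 barcodes) and 58.9% in thinned cells. The population ratio of the sum (2.90) became 2.29 with no mitochondrial limit. The summed MKI67 ratio (6.07) became 5.01 under the stricter filter, 6.56 with no mitochondrial limit, 5.60 with all passing barcodes, 4.39 without the 30 cells with most member UMIs, 6.97 with positivity at 2 UMIs and 5.52 as a median within populations. The summed PCNA ratio (3.50) became 3.68 with no mitochondrial limit, 3.24 with all passing barcodes, 3.13 in thinned cells, 2.49 without those 30 cells, 5.89 at 2 UMIs and 3.22 within populations. The mean correlation (0.250) became 0.184 in thinned cells, 0.165 as Spearman's rho, and 0.384 in thinned cells without HIST1H2AC and HIST1H2BK, an alternative chosen after seeing the data. Leaving out populations in turn gave 77.2 to 79.4%, 1.89 to 2.90, 5.63 to 6.31, 3.32 to 3.62 and 0.241 to 0.260. Leaving out members in turn gave 68.6 to 78.3%, 2.64 to 3.28, 4.92 to 7.58, 2.93 to 4.21 and 0.190 to 0.341, in the same order of results. The causes were not tested, except that thinning removes UMIs by construction. Over all results, 92 alternative values moved by more than their error and 564 did not. No paired analysis was possible because the labels pair no samples and there was 1 library. With 1 library, pairs not tied to tumours and 7 to 77 MKI67-positive cells in a population, no effect of a cytokine and no spread between tumours can be given.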

Other observations

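In thinned cells pooled over populations, the summed histone level was lower in cells with a UMI of each of 9 interferon or NF-kB response genes. The pooled ratios ran between 0.674 (GBP1) and 0.853 (NFKBIA). GBP1, a guanylate-binding protein induced by IFNg, is thus the most extreme of the 9. With it, the level was 306 CPM in 1125 cells with a UMI and 454 CPM in 1683 cells without one (ratio 0.674, 0.632 to 0.719). These genes differ between populations, so the same ratio was taken within them. For the sum it is given here for ICAM1, TNFAIP3, CXCL10 and NFKBIA only. Whether the pooled GBP1 ratio is kept within populations is therefore not shown. With ICAM1, an adhesion molecule, the level was higher in 1 of 13 populations, with TNFAIP3, an inhibitor of NF-kB, in 0 of 9, with CXCL10 in 4 of 13 and with NFKBIA in 6 of 13. For HIST1H2AC, which did not go with the cell cycle genes, the pooled ratio was below 1 with all 9, between 0.631 (SOD2) and 0.912 (CD74), but the intervals of CD74 (0.775 to 1.07) and TNFAIP3 (0.624 to 1.05) include 1. Within populations the direction was not kept for 3 of them: HIST1H2AC was higher with CXCL10 in 8 of 13 (median ratio 1.20), with TNFAIP3 in 6 of 9 (1.15) and with CD74 in 7 of 11 (1.04).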
